A study of Arabidopsis thaliana with 8 samples.

Results

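The expression profile of C24 wild type seedlings of Arabidopsis thaliana was described from 2 arrays of the 8 in the series, namely both arrays labelled C24 and no others. The C24 plants carried no mutation in ROS1 or HDA6 but were homozygous for the RD29A-LUC reporter transgene, which sits on 1 T-DNA together with 35S::NPTII, and every other plant in the series carried that T-DNA too. The other genotypes, each on 2 arrays, were the single mutant ros1-1 and the double mutants ros1-1 hda6-9 and ros1-1 hda6-10; hda6-9 is a T-DNA insertion near the stop codon of HDA6, hda6-10 is a small deletion that shifts its reading frame, and both were recovered in the ros1-1 background. C24 is the wild-type strain of the study, which places the ros1-1 mutation in that wild-type background, so the genotypes are compared within that strain. All seedlings were 12 days old and had been raised on sucrose medium in long days (16 h light) at 21 °C. They spent the last day at 4 °C. No genotype was sampled without cold, so levels after cold are given and a response to cold cannot be. Each array held Cy3-labelled RNA from 100 mg of pooled whole seedlings. Both C24 arrays lay on a slide that held no other genotype, so for C24 the slide and the genotype cannot be told apart. Per the design text, replicates of a genotype were biological.

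Arabidopsis seedlings kept in the cold switch on CBF transcription factors, which bind a short promoter element in COR, KIN and RD29A genes and so raise proteins that protect membranes and chloroplasts from freezing. ROS1 is a DNA glycosylase that removes methylated cytosine, and HDA6 is a histone deacetylase that keeps transposons and transgenes silent. In C24 both are intact, so its profile is the one against which release or gain of silencing in the mutants is usually read.

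A level here is the log2 processed signal of a probe minus the log2 of the 75th percentile of that array, so 0 is the signal at that percentile and a difference of 1 is 2-fold. A probe is called detected if the scanner software marked it as well above background. The array has 43603 distinct non-control probes, and 34285 of these were matched by RefSeq accession to 25383 protein-coding genes. In C24, 34295 probes (78.7%) were detected on both arrays, 1218 (2.79%) on 1 array and 8090 (18.6%) on neither. The levels of the probes detected on both arrays ran from -8.70 to 7.64, with a median of -1.33 and 5th and 95th percentiles of -7.25 and 2.98. Probes detected on neither array had a median of -10.56, and their highest level was -8.24. At the level of spots, 80.6% were well above background on replicate 1 and 79.3% on replicate 2, against 77.2% to 79.9% on the 6 other arrays. No spot was saturated on any of the 8 arrays.

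**Figure D1:**
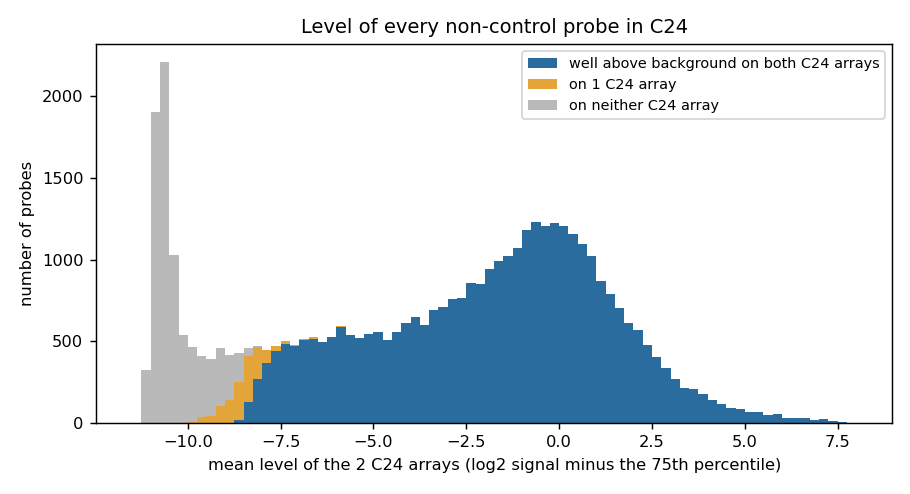
Number of probes (y axis) by mean level over both C24 arrays (x axis, log2 signal minus the 75th percentile), stacked by detection. Probes detected on neither array pile up near their median of -10.56, while those detected on both spread around -1.33.

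The share of detected probes differed with what the probe was made from. Of the 34285 probes of annotated protein-coding genes, 84.5% were detected on both C24 arrays and 13.3% on neither. Of 5860 probes made from expressed sequence tags, cDNAs or assembled transcripts, 60.1% were detected on both and 34.5% on neither. Of 1645 probes with no transcript accession, 32.3% were detected on both and 62.9% on neither. Counted by the best probe of each gene, 20855 genes (82.2%) were detected on both C24 arrays, 639 on 1 and 3889 (15.3%) on neither. The share on neither was similar over the chromosomes, from 14.3% on chromosome 1 to 16.3% on chromosome 2.

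Of a list of 35 nuclear photosynthesis genes, 13 were among the 20 brightest annotated genes of C24 and 28 among the 100 brightest. The list does not hold every such gene: PSBW and FBA2, named below, are not on it. A probe's signal depends on the probe as well as on the transcript, so the order is one of probe signals and not of transcript numbers. The signal was spread over many probes: the 100 brightest held 15.6% of the summed signal on replicate 1 and 16.2% on replicate 2, and 10 probes held 2.27% and 2.32%. Of the 100 brightest probes, 95 were shared by both arrays. RBCS1A, a small subunit gene of the CO2-fixing enzyme Rubisco, stood first among annotated genes at 7.31 and 7.52 on replicates 1 and 2, below 3 brighter probes that were not matched to a gene. RBCS2B, another small subunit gene, followed at 7.35 and 7.47, and PSBO1, of the oxygen-evolving complex of photosystem II, at 7.33 and 7.48. CAB1, a light-harvesting chlorophyll-binding protein, had 7.26 and 7.38, and PSBR, a further photosystem II protein, had 7.28 and 7.32. The order of the first 3 was not resolved, since their means lay closer together than the arrays of any one of them. Also among the 20 brightest genes were RBCS1B, RBCS3B, CAB2, CAB3, LHCA1, PSBW, LHCB6, LHCB2.2, the plastocyanin gene DRT112, the plastid aldolase FBA2, and AT5G28450.

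The remaining bright genes have other roles. GRP7, a glycine-rich RNA-binding protein under circadian control that is known to accumulate in the cold, had 6.99 and 7.01 on the C24 arrays. GRP-3, a secreted glycine-rich protein, had 7.02 and 7.15, AT5G42530 had 7.05 and 7.09, and AT2G45180 had 6.65 and 6.79. On the 6 arrays of the other genotypes, GRP7 lay between 6.71 and 7.27 and RBCS1A between 7.28 and 7.91, so the C24 values lay inside both ranges.

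The labelled tissue was checked against lists of marker genes, each gene by its brightest probe. All 35 nuclear photosynthesis genes were detected on both C24 arrays, with a median level of 6.47, against -1.54 for all 25383 genes. The lowest was LHCB2.1 at 0.13 and 0.40. The 140 probes of this list held 11.5% of the summed signal on replicate 1 and 12.1% on replicate 2. Of 16 root genes, 14 were detected on both arrays, with a median of -3.90. PYK10, a root beta-glucosidase of the endoplasmic reticulum, was the highest at 4.67 and 4.77. PLT1, a transcription factor of the root stem cell niche, was detected on neither array, and the nitrate transporter NRT2:1 on 1 array, at -8.53 and -8.68. The RNA came from whole seedlings, so a low level can mean few cells of a type or little RNA per cell, and these cannot be told apart.

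Anther, pollen and floral genes were low or not detected, and seed genes were mostly low. Of 10 anther and pollen genes, 3 were detected on both arrays and 6 on neither, and the median level was -10.77. SPL, MS1 and AMS, regulators of anther and tapetum development, the pollen wall enzyme CYP703A2, the pollen pectin methylesterase VGD1 and the sperm cell factor DUO1 were the 6 that were not detected. AtVEX1 was the highest of the list, at -6.39 and -6.46. Of 11 floral organ genes, 9 were detected on both arrays, with a median of -6.56 and a highest level of -3.25 and -3.71 in SEP3, a transcription factor of floral organ identity. Of 18 seed maturation genes, 13 were detected on both arrays and 4 on 1 array, and their median was -6.45. The storage globulin genes CRU3, at -1.29 and -7.58, and CRA1, at -1.52 and -6.62, were the exception, being near the median of all genes on replicate 1. SESA4, a seed storage albumin, was detected on neither array, at -8.90 and -8.88.

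Among the cold-induced COR and dehydrin genes, 15 of 16 were detected on both C24 arrays, with a median level of 0.22. The dehydrins ERD14 and COR47, which bind membranes and proteins in dehydrated cells, were the highest, at 4.28 and 4.10 and at 4.12 and 4.07. GolS3, a galactinol synthase that makes the precursor of raffinose, was the only one detected on neither array, at -9.27 and -10.35. COR15A, a chloroplast protein that protects the inner envelope from freezing, had -2.78 and -3.09. RD29A, listed under its RefSeq symbol LTI78 and driven by the same promoter as the reporter, had -2.0 and -4.43, which is a 5.38-fold difference between arrays of 1 genotype, and its second probe, detected on 1 array, had -7.04 and -8.71. COR413IM1, an inner envelope protein, was the other member over 2-fold apart, at -0.07 and -1.13.

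Of 8 cold regulators, 7 were detected on both C24 arrays. The zinc finger factors STZ and RHL41 were the highest, at 1.48 and 0.84 and at 1.3 and 1.20. CBF2 had -1.74 and -2.46, CBF1 had -4.44 and -5.74, and DREB1A, also known as CBF3, had -2.90 and -4.65. VIN3, which is induced over weeks of cold during vernalization, was detected on 1 C24 array only, at -8.24 and -8.57. All 3 CBF genes were higher on replicate 1, and for CBF1 and DREB1A the arrays were over 2-fold apart. All 6 cold-shock and glycine-rich RNA-binding protein genes were detected, from GRP2B at 0.71 and 0.88 to GRP7.

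All 15 circadian clock genes were detected on both C24 arrays, and none was over 2-fold apart. The morning factors LHY and CCA1 had 1.12 and 1.53 and 0.90 and 1.35, and PRR9 was the lowest clock gene at -5.87 and -6.15. TCP11, at 2.65 and 2.61, was the highest entry of that list. The hour of harvest is not given in the sources used here, so no phase is read from these levels. All 16 housekeeping genes with a probe were detected, from AT2G28390 at 0.20 and 0.23 to the polyubiquitin gene UBQ10 at 6.17 and 6.2. UBQ3, the standard of the study's RNA blots, had 4.70 and 4.61 by its brightest probe.

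**Figure D2:**
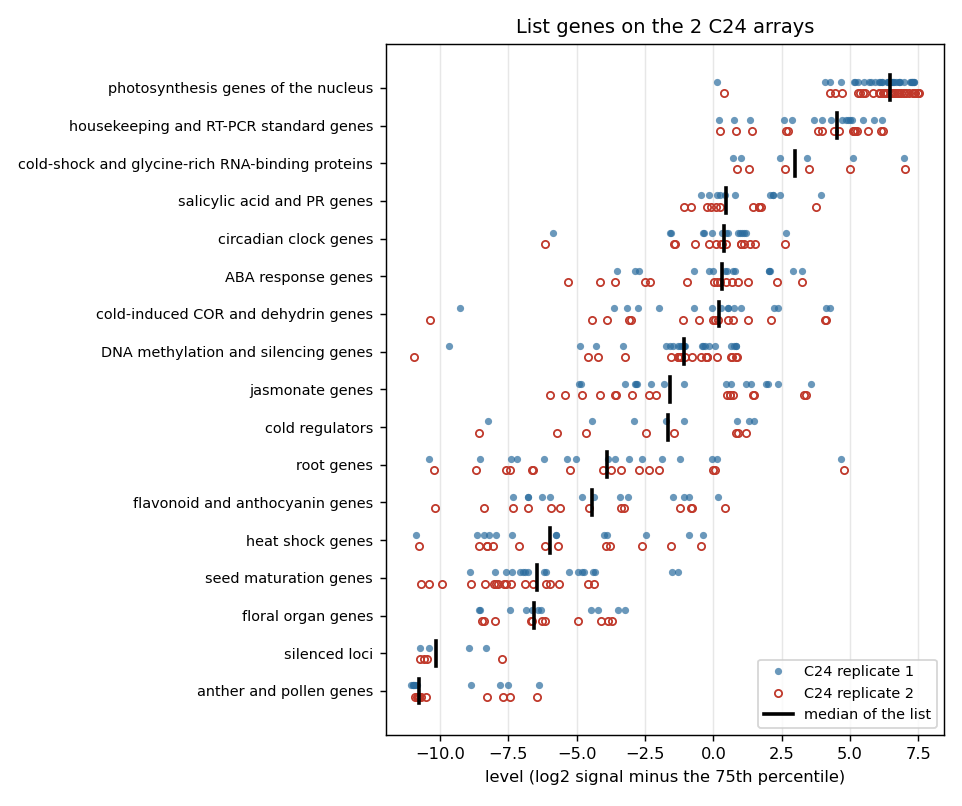
Level (x axis, log2 signal minus the 75th percentile) of each gene of 17 lists (rows, ordered by median) on C24 replicate 1 (filled points) and replicate 2 (open points), with the list median as a black bar. Photosynthesis genes have a median of 6.47, and anther and pollen genes one of -10.77.

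Of 22 genes of DNA methylation and silencing, 21 were detected on both C24 arrays, with a median of -1.09. HDA6 had -0.31 and -0.24 by its brightest probe and -6.30 and -6.31 by its other probe. ROS1, listed as DML1, had 0.66 and 0.64, and the maintenance methyltransferase MET1 had -0.43 and -0.22. The histone deacetylase HD1 was the highest of the list at 0.82 and 0.85. HDA7, a close relative of HDA6, was the member not detected, at -9.67 and -10.96. Of the 4 silenced loci that were listed, SDC at -8.96 and -10.74, FWA at -10.72 and -10.59 and AT5G41660 at -10.39 and -10.48 were detected on neither C24 array. SDC and FWA are genes kept off by methylation of repeats at their promoters. QQS, an orphan gene of starch metabolism, was detected on both arrays at -8.33 and -7.73, near the lower limit of detection.

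The hormone and stress lists lay between these extremes. All 15 ABA response genes, all 17 jasmonate genes and all 11 salicylic acid and PR genes were detected on both C24 arrays, with medians of 0.33, -1.59 and 0.44. RAB18, a dehydrin induced by ABA, was the highest of the ABA list at 3.24 and 3.25 by its brightest probe. The lowest of its 4 probes had a mean level of -4.35. HAI2, a phosphatase of ABA signalling, was the lowest of the list at -2.89 and -5.34. LOX2, a plastid lipoxygenase of jasmonate synthesis, had 3.57 and 3.38, and the lowest jasmonate gene was JAZ8, a repressor of the pathway, at -4.94 and -5.98. WRKY70, a transcription factor of salicylic acid defence, had 3.94 and 3.76, and EDS16, the isochorismate synthase that makes salicylic acid, was lowest in its list at -0.47 and -0.81. Of 13 heat shock genes, 11 were detected on both arrays, with a median of -5.97. The chaperone gene HSP90.1 was the highest at -0.40 and -0.44, and the small heat shock genes ATHSP22.0 and HSP23.6-MITO were not detected. Of 13 flavonoid and anthocyanin genes, 11 were detected on both arrays, from the chalcone synthase TT4 at 0.15 and 0.41 downwards, and MYB90 and TT8, regulators of pigment genes, on 1 array.

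The 3889 genes not detected in C24 were unevenly spread over gene families, as counted from shared symbols in the annotation for families of at least 20 genes with a probe. This grouping was made after the values were seen. Among the SCRL and LCR genes, which encode small secreted cysteine-rich peptides, 20 of 27 and 56 of 78 were not detected. Of the RALFL peptide genes, 15 of 28 were not detected. Of the WRKY factors, 2 of 65 were not detected, of the EMB genes, which are needed for embryo development, 1 of 153, and among the 23 RPL and 24 RPS ribosomal protein genes every one was detected on both C24 arrays. Of all genes with a probe, 15.3% were not detected. Most undetected genes of C24 were undetected everywhere: 3117 of the 3889 had no probe above background on any of the 8 arrays. Detection here is of probes, and how well the probes match the sequences of the C24 strain was not tested. An undetected gene is therefore not shown to be unexpressed. By probes, 23 were detected on neither C24 array and on all 6 others, and 100 were detected on both C24 arrays and on none of the 6 others.

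How far a level can be read as the level of a gene was checked on the 6919 genes with more than 1 probe. The median range between probes of a gene was 1.92 on the log2 scale in C24, and for 10% of these genes it was above 5.44. In 320 genes 1 probe was detected on both C24 arrays and another on neither. Levels of different genes are therefore set side by side only as probe signals, and the differences below are between arrays for the same probe.

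The C24 arrays agreed closely for most probes. Of the 34295 probes detected on both, 94.2% were within 1.5-fold of each other, the median absolute difference was 0.13 on the log2 scale, and Pearson's r across these probes was 0.994. That correlation is over probes, which are not independent replicates. A total of 764 probes (2.23%) were over 2-fold apart, of which 615 were higher on replicate 1 and 149 on replicate 2. Over 4-fold there were 135 and 30, and over 8-fold 40 and 7. With normexp background correction, 340 probes were over 2-fold apart, 289 of them higher on replicate 1 and 51 on replicate 2. Pairs of the other genotypes had 742 to 883 such probes, or 2.18% to 2.61% of those they detected on both arrays, and C24 lay within that range. Differences were more frequent among dim probes: of 10 equal classes by level, the dimmest had 5.80% over 2-fold apart and the brightest 0.44%. Repeated spots of 1 probe on the same array had a median SD of 0.06 on replicate 1 and 0.05 on replicate 2, and spike-in RNAs differed between the arrays by -0.03 to 0.08. Over blocks of the array surface, the share of spots over 2-fold apart ran from 0.80% to 3.07%.

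Genes of seed storage led the list of those higher on C24 replicate 1. M17, a late embryogenesis abundant protein, had -0.29 on replicate 1 and -6.77 on replicate 2, a 89.5-fold difference. The cruciferin genes CRU3 and CRA1, which encode the main storage globulins of the seed, had -1.29 and -7.58 and -1.52 and -6.62. On the other genotypes' arrays, M17 was -8.40 on replicate 2 of ros1-1 hda6-9 and between -0.62 and 0.85 on the other 5, and CRA1 was -7.26 on that same array and between -1.70 and -0.28 on the other 5. C24 replicate 2 and ros1-1 hda6-9 replicate 2 were thus the low arrays for both genes. Of the 13 seed maturation genes detected on both C24 arrays, 6 were over 2-fold higher on replicate 1 and the median difference was 0.62, while the oleosin gene OLEO4 at -4.40 and -4.39, the regulator LEC1 at -6.19 and -6.14 and AT1G03890 at -4.73 and -4.58 differed least. Over all 20844 genes detected on both arrays by their brightest probe, 2.20% were over 2-fold higher on replicate 1, 0.489% on replicate 2, and the median difference was -0.02. SESA1, SESA5, CRU2 and EM1 were detected on replicate 1 only.

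Most of the other genes at the head of this list are known from the response to phosphate starvation, which recycles phosphate from lipids, nucleic acids and organic esters. In this ranking a gene is given by its probe with the largest difference, which need not be its brightest. The phosphatase genes PEPC1 and PS2 had 1.76 and -3.03 and -0.18 and -4.54 on replicates 1 and 2 of C24, and the purple acid phosphatase PAP14 had -2.13 and -7.42. By their brightest probes, PS2 had 2.76 and -1.45 and PAP14 had 0.07 and -4.94. SPX3, a repressor of the phosphate response, had -0.38 and -5.44, a 33.2-fold difference. Of the rest, OCT1, an organic cation transporter, had -3.45 and -7.67, AT3G25240 had -1.92 and -6.29, and AT5G35660 had -2.86 and -7.05. Of the 5 highest probes detected on 1 C24 array only, PAP25, PAP24 and PAP23 are further purple acid phosphatases, with -3.57, -3.75 and -4.32 on replicate 1 and -9.70, -8.20 and -8.79 on replicate 2. The 2 others were a second CRA1 probe, at -3.78 and -8.50, and AT5G49600, at -4.58 and -8.76. PAP24, too, has a brighter probe, which was detected on both C24 arrays, at -3.19 and -7.23.

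A list of 23 phosphate starvation genes was drawn up after these values were seen, so it describes the arrays and tests nothing. Of the 21 detected on both C24 arrays, all 21 had the higher level on replicate 1, 15 of them by over 2-fold, and the median difference was 2.28. They include SPX1 at 2.20 and -0.08, the non-coding RNA IPS1, a decoy for a phosphate-regulating microRNA, at -0.42 and -3.22, the galactolipid synthase MGDC at 0.59 and -3.34, the phosphate transporter PHT1;4 at -0.12 and -2.69 and the ribonuclease RNS1 at -2.61 and -5.86. PAP10, at 0.66 and 0.47, and SQD1, of sulfolipid synthesis, at 2.60 and 2.31, differed least. The pair of ros1-1 hda6-10 arrays was apart as well, but with replicate 2 the higher: 18 of 23 genes were over 2-fold higher there. SPX3 was -4.07 and -0.46 on replicates 1 and 2 of ros1-1 hda6-10, -3.34 and -4.12 in ros1-1 hda6-9, and -0.86 and -1.48 in ros1-1. For SPX3, C24 replicate 1 was thus the highest and C24 replicate 2 the lowest of the 8 arrays.

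Genes of iron uptake moved the opposite way. BHLH100, bHLH38 and bHLH39, transcription factors induced when iron is short, had -1.3, -0.76 and -1.3 on replicate 1 of C24 and 1.85, 2.23 and 1.5 on replicate 2. IRT1, the main iron transporter of the root surface, had -5.37 and -2.35, and FRO2, the ferric reductase that acts before it, had -4.72 and -2.19. On the 6 other arrays IRT1 lay between -6.06 and -3.81, below its level on C24 replicate 2. The other genes among the 10 with the largest differences in this direction were AT4G36700 at -5.87 and -2.31, AT1G67150 at -6.75 and -3.45, AT4G08875 at -4.95 and -2.20, AT4G33970 at -7.56 and -4.98 and AT4G08867 at -6.55 and -4.07. Of 15 iron deficiency genes detected on both C24 arrays, from a list of 17 also drawn up afterwards, 12 were over 2-fold higher on replicate 2, with a median difference of -1.56. The remaining 3 were FRU, also called FIT, at -3.16 and -3.03, PYE at 1.82 and 2.38 and OPT3 at 2.33 and 3.09. In ros1-1 hda6-10, 12 of 15 detected genes of the list were over 2-fold higher on replicate 1. Ferritin genes, whose products store iron, were higher on replicate 1: FER1 had 1.58 and -0.76 and FER4 had 1.52 and 0.13 on the C24 arrays.

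**Figure D3:**
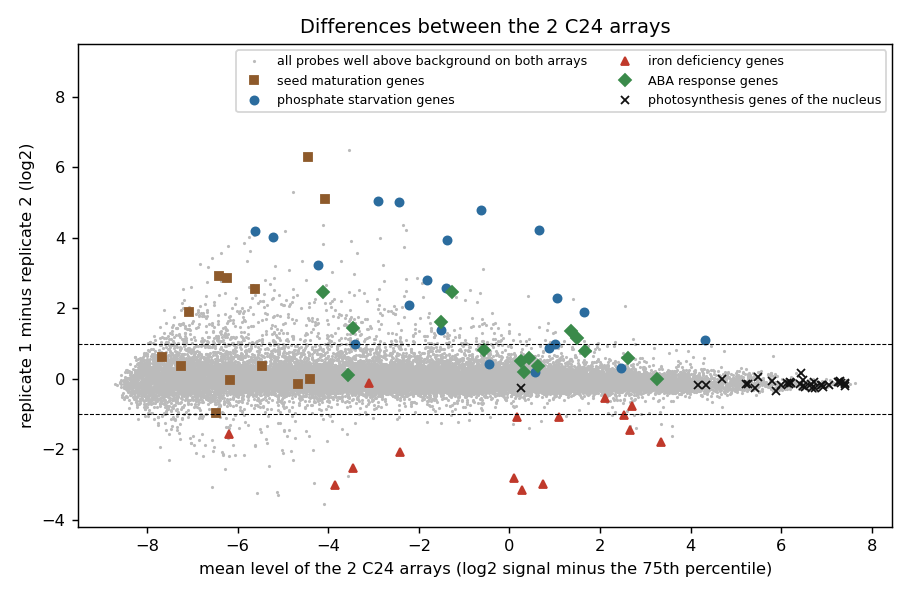
Difference between both C24 arrays (y axis, replicate 1 minus replicate 2, log2) against their mean level (x axis, log2 signal minus the 75th percentile) for the probes detected on both, with genes of 5 lists marked and dashed lines at 2-fold. Phosphate starvation genes lie above 0 with a median of 2.28, iron deficiency genes below it with a median of -1.56.

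**Figure D4:**
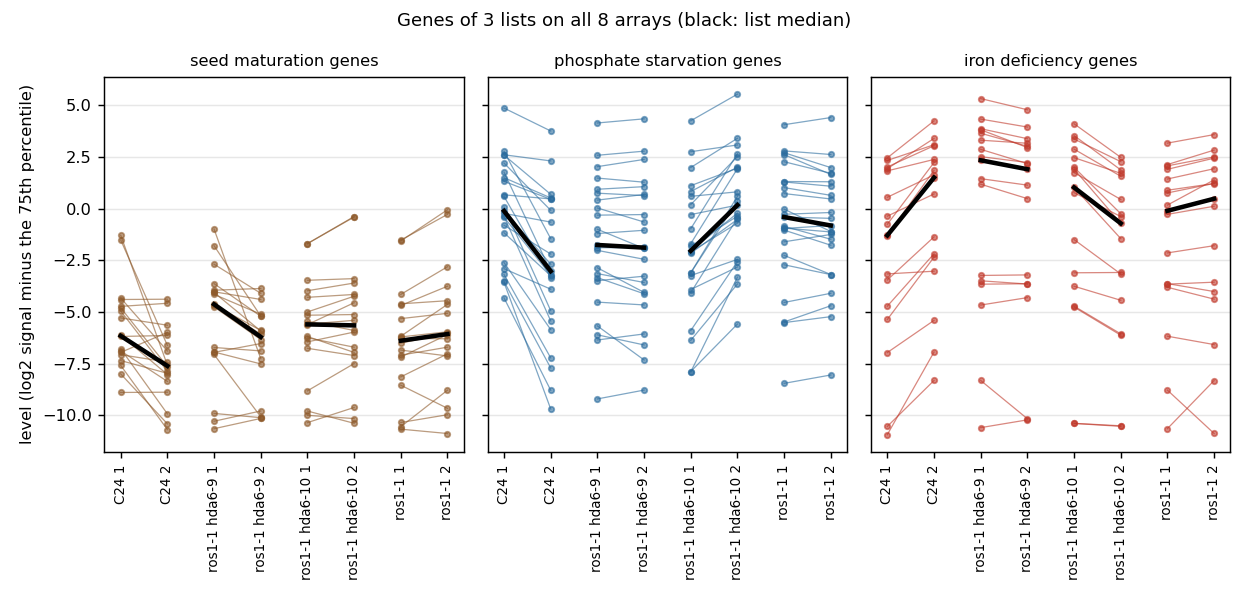
Level (y axis, log2 signal minus the 75th percentile) of each seed maturation, phosphate starvation and iron deficiency gene on all 8 arrays (x axis), with lines joining replicates of a genotype and black lines for the list median. For phosphate starvation genes the median was -0.12 on C24 replicate 1 and -3.03 on C24 replicate 2, and for iron deficiency genes it was -1.3 and 1.5.

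Some stress hormone genes also differed between the C24 arrays. Of 15 ABA response genes, 6 were over 2-fold higher on replicate 1, namely HAI1 at -0.03 and -2.49, HAI2, the ubiquitin ligase PUB19 at -0.69 and -2.32, NCED3, which makes the ABA precursor, at -2.73 and -4.17, NAC019 at 2.04 and 0.69 and HB-12 at 2.05 and 0.91, and the median difference was 0.78. Of 17 jasmonate genes, JAZ5, JAZ8, LOX3 and LOX4 were over 2-fold higher on replicate 1, while the defensin gene PDF1.2, at 1.99 and 3.33, was over 2-fold higher on replicate 2. The jasmonate count depended on the scaling, with 2 genes over 2-fold higher on replicate 1 after quantile normalization, 3 after cyclic loess and 1 after normexp. None of the 11 salicylic acid and PR genes was over 2-fold apart, but all 11 were higher on replicate 1, with a median difference of 0.35. After quantile normalization or cyclic loess, 1 of these genes was over 2-fold higher on replicate 1. The root list was mixed. The root hair genes EXPA7, at -5.02 and -6.65, and SHV2, at -3.59 and -5.24, and the Casparian strip gene CASP1, at -2.62 and -3.76, were higher on replicate 1. HSP21, a small heat shock protein of plastids, had -8.41 and -7.10, and the flavonoid gene UF3GT had -6.27 and -7.35. None of the photosynthesis, housekeeping, clock, floral organ or silencing genes detected on both arrays was over 2-fold apart.

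Probes that were apart in C24 were often apart elsewhere. Of the 764, 369 (48.3%) were also over 2-fold apart in at least 1 other pair, against 4.96% of all probes detected on both C24 arrays. The pair of ros1-1 hda6-10 shared 204 of them, with the higher array being the other replicate number in 176 and the same number in 28. In ros1-1 hda6-9 these counts were 145, 96 and 49, and in ros1-1 they were 127, 40 and 87. For 306 of the 764 both C24 values lay within the range of the 6 other arrays.

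C24 was then compared with the mean of the 3 genotypes that carry ros1-1, in a limma model over all 8 arrays. Of 35380 tested probes, 204 (0.577%) were higher and 806 (2.28%) lower in C24, past 2-fold with an adjusted p below 0.05. Both C24 arrays lay above all 6 others in 143 of the 204 and below them in 266 of the 806, and over all tested probes these arrangements held for 7.36% and 5.9%. The lower probes differed mainly from the double mutants, with a median over the 806 of -2.88 from ros1-1 hda6-9 and -2.85 from ros1-1 hda6-10, and of -0.08 from ros1-1. For the 204 probes it was 1.77, 1.54 and 1.12 in the same order. Against each of the 3 genotype means, 57 probes were over 2-fold higher and 84 over 2-fold lower. With ros1-1 alone as the comparison, 120 probes were higher and 32 lower in C24. The count of higher probes rested on C24 replicate 1 in part: without that array it was 73. Of the 806 lower probes, 346 were detected on neither C24 array, so they passed the detection filter only through the other genotypes, where they are high. Of the 204 higher probes, 23 were detected on both C24 arrays and on none of the 6 others, so they passed only through C24. The calls of these probes are counted but are no independent test.

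The gene that stood furthest above the others in C24 was PCR1, a membrane protein named for cadmium resistance. Its level was 2.47 and 1.92 in C24, against -3.50 and -1.76 in ros1-1 hda6-9, -3.28 and -3.92 in ros1-1 hda6-10, and -0.87 and -2.35 in ros1-1. The log2 difference was 4.81 (SE 0.59, limma adjusted p = 0.0104), and the adjusted p was 0.0957 without C24 replicate 1 and 0.0628 without C24 replicate 2, in a range from 0.00651 to 0.0957. Such ranges are over the alternatives that keep this comparison, and values against ros1-1 alone are given apart. VAT1, a regulatory subunit of acetolactate synthase, had 0.96 and 1.03 in C24, against -1.34 to -0.86 on the 6 other arrays, with a log2 difference of 2.20 (SE 0.09, limma adjusted p = 0.000168). AT3G60520 had 1.06 and 0.73 in C24, against -3.01 to 0.14, and IQD19, of a calmodulin-binding family, had -1.60 and -1.62, against -4.38 to -2.87. The log2 differences were 2.24 and 1.93. MSS3, a calmodulin-like protein, had 0.20 and -0.19 in C24, against -0.91 and -0.71 in ros1-1 hda6-9, -1.28 and -0.93 in ros1-1 hda6-10, and -2.92 and -3.02 in ros1-1. AT2G01610 was higher in C24 by 1.75 and MSS3 by 1.63, and both passed with every single array left out. XTH29, a xyloglucan-modifying enzyme of the cell wall, and LAS1, the lanosterol synthase, were higher by 1.81 and 1.73, and neither passed with normexp background correction (limma adjusted p = 0.0736 and 0.0516). The adjusted p of XTH29 was 0.162 without C24 replicate 1, 0.10 without C24 replicate 2 and 0.0528 without ros1-1 hda6-9 replicate 2, in a range from 0.00586 to 0.162, and that of LAS1 ran from 0.000397 to 0.0516. LAS1 was close to ros1-1, at -3.99 and -3.88 in C24 against -4.29 and -4.00 there. Against ros1-1 alone, AT3G60520, VAT1, IQD19, AT2G01610 and MSS3 passed, while PCR1, XTH29 and LAS1 did not (limma adjusted p = 0.130, 0.188 and 0.596).

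Among annotated genes detected on all 8 arrays with both C24 values below the 6 others, AT5G01080 had the largest negative difference. Its levels were -7.18 and -7.48 in C24, against 0.62 and 0.28 in ros1-1 hda6-9, 0.61 and 0.45 in ros1-1 hda6-10, and -5.57 and -6.25 in ros1-1, with a log2 difference of -5.69 (SE 0.21, limma adjusted p = 0.000112). AT5G35480 had -1.29 and -1.66 in C24, against 4.91 to 5.11 on the arrays of both double mutants and -0.86 and -1.14 in ros1-1. In AT5G15690, AT3G42850, AT3G28500 and AT3G33528, too, ros1-1 lay closer to C24 than the double mutants did, and the log2 differences were -4.31, -3.79, -3.66 and -3.38. AT5G15690 was the one of these that did not pass without C24 replicate 1 or without C24 replicate 2 (limma adjusted p = 0.0745 and 0.0687, in a range from 0.000923 to 0.0745). GRP20, an oleosin-like glycine-rich protein of the pollen coat, had -8.08 and -8.00 in C24, against -3.26 to -2.58 in the double mutants and -5.96 and -5.90 in ros1-1, with a log2 difference of -4.15 (SE 0.18). AT1G77790 was the exception, with -7.91 and -7.14 in C24 and -4.37 to -3.70 on all 6 other arrays, a log2 difference of -3.39 (SE 0.20, limma adjusted p = 0.000636). Of these 8 genes, GRP20 and AT1G77790 also passed against ros1-1 alone.

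Some genes were detected in only one side of the comparison. For these the fold is a lower bound on the difference between C24 and the mean of the genotypes carrying ros1-1. Per array, the undetected side was set to the weakest signal marked as well above background, or to the probe's own signal where higher. AT3G01345 was detected on neither C24 array, at -9.24 and -10.19, but on all 6 others, at -6.66 to 0.42, and was at least 101-fold lower in C24. AGO9, an Argonaute protein of ovules, was at least 16.2-fold lower, GRP19, a relative of GRP20, at least 14.5-fold, AT3G12470 at least 10.3-fold and AT3G23060 at least 5.66-fold. AT3G01345 was -5.65 and -6.66 in ros1-1, against -0.34 to 0.42 in the double mutants. AGO9 was -7.26 and -8.10 against -4.22 to -2.64, and GRP19 -6.78 and -8.05 against -4.09 to -3.12. Bounds against ros1-1 alone would therefore be smaller. All the genes detected on neither C24 array entered the fit only through the genotypes carrying ros1-1, where they are high, so no p is given for them. The call of AT3G12470 was also lost when any array of C24, ros1-1 hda6-9 or ros1-1 hda6-10 was left out. That of AT3G23060 was lost with normexp background correction. In the other direction, RHS6, AT3G25490, AT5G46890, AT3G05950 and AT1G54890 were detected on both C24 arrays and on no other, at mean levels of -6.45 to -7.43 in C24. They were at least 3.99-, 3.46-, 2.38-, 2.17- and 2.03-fold higher, but they entered the fit only through C24, where they are high, so no p is given for them. With normexp background correction their log2 differences were -0.077 for AT3G05950 and 0.04 to 0.26 for the 4 others.

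**Figure D5:**
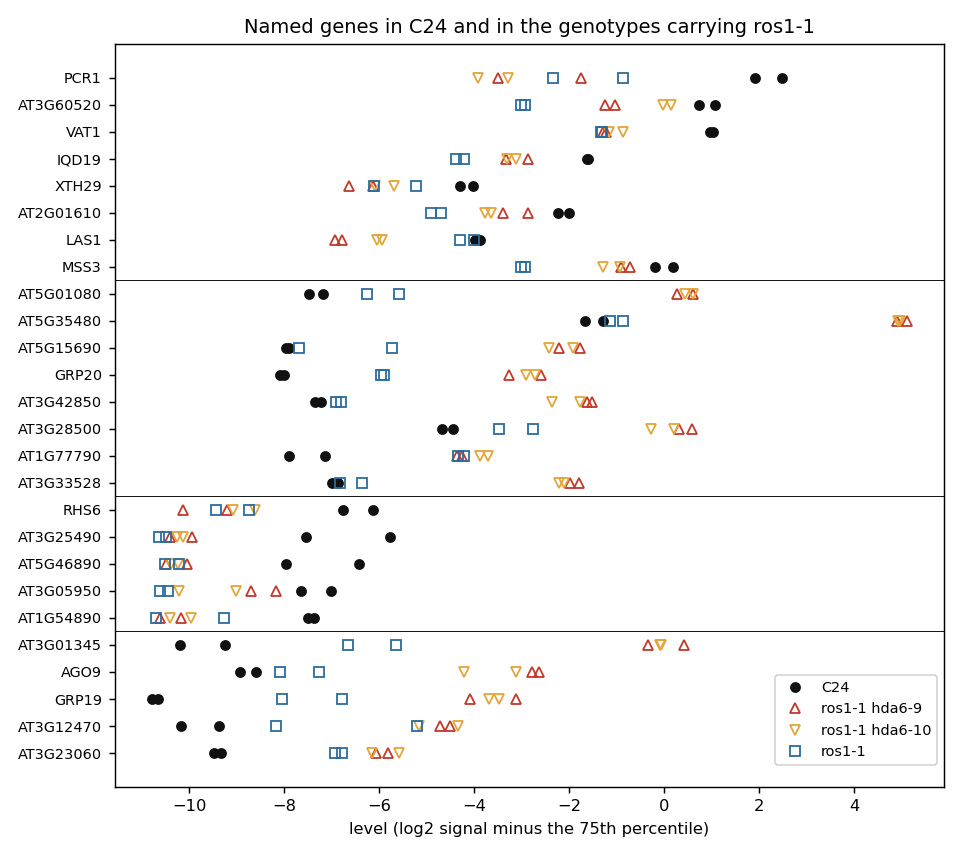
Level (x axis, log2 signal minus the 75th percentile) of the named genes (rows) on both C24 arrays (filled circles) and on the arrays of ros1-1 hda6-9, ros1-1 hda6-10 and ros1-1 (open symbols). Blocks from top to bottom hold genes higher in C24 and lower in C24 on arrays that all detected them, then genes detected in C24 alone and in the other genotypes alone; AT3G01345 lies at -9.24 and -10.19 in C24.

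The silenced loci differed between C24 and the double mutants. SDC was not detected in C24 or in ros1-1, and was at least 384-fold lower in C24 than in ros1-1 hda6-9 and at least 245-fold lower than in ros1-1 hda6-10. AT5G41660 was likewise detected in neither C24 nor ros1-1, and was at least 79.7- and 86.1-fold lower in C24 than in ros1-1 hda6-9 and ros1-1 hda6-10. QQS had -8.33 and -7.73 in C24, against 0.79 to 1.16 in the double mutants and -7.72 and -8.25 in ros1-1. HDA7 was detected on 1 of the ros1-1 arrays, and was at least 16.4- and 15.5-fold lower in C24 than in ros1-1 hda6-9 and ros1-1 hda6-10. QQS passed in the fit against the mean of the 3 genotypes (limma adjusted p = 0.000105). SDC, AT5G41660 and HDA7 entered that fit only through the double mutants, where they are high, so no p is given for them. None of these 4 genes passed against ros1-1 alone. ROS1 itself was above all 6 other arrays in C24, at 0.66 and 0.64 against -0.24 to 0.52, with a log2 difference of 0.56 (SE 0.10, limma adjusted p = 0.0388), which is under 2-fold. Without C24 replicate 1 its adjusted p was 0.237, the highest of a range from 0.0303. HDA6 had -0.31 and -0.24 in C24, against 0.90 and 0.84 in ros1-1 hda6-9, -1.76 and -1.78 in ros1-1 hda6-10, and -0.17 and -0.20 in ros1-1. C24 thus lay over 2-fold below the first double mutant and over 2-fold above the second, and these opposite differences cancelled in the mean (log2 difference 0.08, SE 0.06, limma adjusted p = 0.431).

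Over 21429 genes tested by their brightest probe, 0.565% were called higher and 2.22% lower in C24, and the median difference was -0.02. Both C24 arrays lay above all 6 others in 5.78% of these genes and below them in 6.72%. Among the ABA response genes, 2 of 15 were called, NAC019 at 2.04 and 0.69 and the related factor RD26 at 2.05 and 1.27, both higher in C24. NAC019 was -3.30 and -2.53 in ros1-1 hda6-9, 0.29 and 0.75 in ros1-1 hda6-10 and -0.70 and -0.35 in ros1-1, so the lower C24 array lay within the pair of ros1-1 hda6-10. RD26 was 2.23 and 2.08 in ros1-1 hda6-10, above both C24 arrays. Among fits with 1 array left out, NAC019 passed only without C24 replicate 2, and RD26 only without that array or without ros1-1 replicate 2. Without C24 replicate 1, on which the ABA list was the higher, their limma adjusted p was 0.125 and 0.199, in ranges from 0.0240 and 0.0291. Of 11 salicylic acid and PR genes, 2 were called higher in C24. WRKY70 had 3.94 and 3.76, against 2.38 and 2.48 in ros1-1 hda6-9, 1.96 and 2.19 in ros1-1 hda6-10 and 3.60 and 3.53 in ros1-1 (log2 difference 1.16, SE 0.09, limma adjusted p = 0.00221). SARD1, which activates salicylic acid synthesis, had 0.12 and -0.24, against -2.07 to -0.59 (log2 difference 1.3, SE 0.16, limma adjusted p = 0.0104), and its adjusted p was 0.085 without C24 replicate 1, the highest of a range from 0.00639.

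Of 15 tested COR and dehydrin genes, COR15A and COR15B were called lower in C24, by 1.37 and 1.22 on the log2 scale. COR15A had -2.78 and -3.09 in C24, against -1.03 and -1.56 in ros1-1 hda6-9, -0.68 and -1.28 in ros1-1 hda6-10 and -2.18 and -2.66 in ros1-1 (limma adjusted p = 0.0353, range over alternatives 0.0032 to 0.188, highest without C24 replicate 2), and among fits with 1 array left out passed only without ros1-1 replicate 2 or ros1-1 hda6-10 replicate 2. COR15B, whose spot on ros1-1 hda6-10 replicate 2 was an outlier and was left out of the fit, had -0.70 and -0.51 in C24 and -0.06 and -0.77 in ros1-1 (limma adjusted p = 0.0487, range 0.0155 to 0.277, highest without C24 replicate 1), and among fits with 1 array left out passed only without ros1-1 replicate 1 or ros1-1 replicate 2, while without ros1-1 hda6-10 replicate 1 it could not be fitted. The 3 CBF genes and RD29A did not pass. CBF1 had -4.44 and -5.74 in C24, against -8.37 and -7.73 in ros1-1 hda6-9, -4.36 and -5.44 in ros1-1 hda6-10 and -8.40 and -8.41 in ros1-1. RD29A had -2.0 and -4.43 in C24, against -4.79 and -4.31, 0.21 and -0.92, and -5.94 and -6.24 in the same order, a log2 difference of 0.45 (SE 0.66, limma adjusted p = 0.718). One gene of 11 floral organ genes, the ovule identity factor STK, was lower in C24, at -6.43 and -6.69 against -5.51 to -5.02. One of 12 heat shock genes, HSP70, was lower as well, at -0.90 and -1.55 against -0.65 to 0.11, by 1.02 on the log2 scale, and among fits with 1 array left out passed only without C24 replicate 1 (limma adjusted p = 0.122 without C24 replicate 2, in a range from 0.0256). Of the called genes of the ABA, salicylic acid, COR, floral and heat shock lists, only STK passed against ros1-1 alone, and the limma adjusted p of the others there ran from 0.0754 to 0.836. None of the photosynthesis, housekeeping, clock, cold regulator, RNA-binding protein, root, seed maturation, anther and pollen, jasmonate or flavonoid genes was called by limma. At an unadjusted limma p under 0.05 and over 2-fold, 575 probes were higher and 1041 lower in C24 of all 35380 tested. At that cut these lists held 10 genes. They included CBF1 of 7 tested cold regulators and WOX5 of 14 root genes. The rest were 5 of 15 seed maturation genes (SESA2, SESA5, OLEO2, EM1 and GEA6, all lower in C24) and 3 of 4 anther and pollen genes (TDF1, MGH3 and HAP2). TDF1 was detected on no array of another genotype, and MGH3 on both arrays of C24 alone, so they entered the fit only through C24, where they are high. SESA5, EM1 and HAP2 were detected on 1 C24 array, so they entered only through the genotypes carrying ros1-1, where they are high. For the genes named in these last sentences, passing this cut is therefore no test.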

How the data were processed

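Per the labels, RNA (150 ng per sample) was labelled with Cy3 and hybridised to 1-colour Agilent arrays of 2 biological replicates per genotype. The study's methods give a larger number of biological replicates, so whether an array held RNA of 1 or of pooled replicates is not known. The deposited intensity values were written by the authors' Feature Extraction 10.7.1.1 software, which subtracted background. A deposited combined table holds the background-subtracted intensity of the same arrays and was used as an alternative. Outlier spots were dropped, repeated spots averaged, and each array's log2 signal was shifted by its 75th percentile over non-control spots. A probe was detected if most of its spots were well above background. Probe accessions were matched to RefSeq (TAIR10.1) for gene symbols, with no coordinates, since the array was designed on another build. C24 was tested against the mean of the 3 ros1-1 genotypes with limma 3.58.1 in R 4.3.3 (lmFit, eBayes, all 8 arrays, a mean per genotype) over the 35380 probes detected on both arrays of at least 1 genotype, with Benjamini-Hochberg adjustment. The script was checked on simulated data. The number of arrays limits the precision.

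Named genes were the 20 brightest, the 10 furthest apart in each direction and the 5 highest on 1 array only, the 8 called genes with the largest change in each direction measured on all 8 arrays, the 5 with the largest bound on each side, and list members. Members and lists were chosen with earlier results of these data known, and the phosphate, iron and ferritin lists after the values were seen. Alternatives were normexp (offset 50, on median signals, since mean signals were not used here), median, quantile and cyclic loess scaling, other detection rules, outlier spots kept, ros1-1 alone as the comparison, slide or replicate as a block, other thresholds, and each array left out. A planned search of promoter motifs was not run. The LUC and NPTII transgenes were not analysed here.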

Additional observations from a re-analysis of the deposited data

How the results depend on the processing

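The counts of probes higher and lower in C24 (204 and 806) were 72 and 367 with normexp background correction, 111 and 402 among probes detected on all 8 arrays, and 120 and 32 against ros1-1 alone. With no minimum change they were 559 and 1425, and at an adjusted p under 0.01 they were 75 and 517. At an unadjusted p under 0.05 and over 2-fold they were 575 and 1041. Leaving out 1 array each gave 73 to 242 higher and 550 to 768 lower probes, with the lowest higher count without C24 replicate 1, where 48 of the 73 were among the 204. Replicate numbers did not pair the arrays (correlations of deviations -0.37 to 0.06), and with the replicate number as a block the counts were 141 and 688. Probes detected on neither C24 array numbered 4326 under the software's positive-and-significant flag. Probes over 2-fold apart between the C24 arrays numbered 340 with normexp and 2127 with no filter on dim probes. Over 39 named results and all alternatives, 566 values kept direction and call, 119 kept direction only and 2 turned: AT3G05950 was -0.077 with normexp, and SDC was 0.97 against ros1-1 alone, where neither side detected it. The cause of the other changes was not tested. Quantile and cyclic loess scaling moved the photosynthesis median difference between the C24 arrays to -0.02 and 0.03, so its sign depends on the scaling. Dim probes carry most of the disagreement.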

Other observations

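Of the 1218 probes detected on 1 C24 array, 867 were detected on replicate 1 only and 318 on replicate 2 only, and 33 had no level on the other array because every spot was an outlier. FER2, a ferritin of seeds, was called lower in C24 at -5.38 and -6.29 (limma adjusted p = 0.0383, range over alternatives of the same comparison 0.0193 to 0.109, and 0.244 against ros1-1 alone), while FER1, FER3 and FER4 were not called.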
